A study of Rattus norvegicus with 8 samples.

Results

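Chemokines are small secreted proteins that draw leukocytes into tissue, and 8 genes of this system were examined in rat vascular smooth muscle cells: the ligand genes Ccl2, Ccl7, Ccl20, Cxcl1, Cxcl2, Cx3cl1 and Cxcl12, and Ackr3, which encodes a scavenging receptor for CXCL12. They were taken by gene symbol as leukocyte-attracting chemokines not driven mainly by interferon, with Cxcl12 and its receptor. All 8 passed the filter on dim signals, among 11377 genes tested, and they carry 10 of the 31099 probe sets on the array. Cxcl12 has 3 probe sets and each other gene has 1, so only for Cxcl12 could the reading be checked on a second probe set.

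The cells were grown out of the thoracic aorta of male rats of the Sprague-Dawley strain and had 2 passages in medium with 10% serum. They received for 48 h either a non-targeting control siRNA (siNTC) or an siRNA against Giver (siGiver), a long non-coding RNA of smooth muscle, and then 100 nM angiotensin II (Ang II, a peptide hormone that constricts vessels) or phosphate-buffered saline (PBS) for 3 h. The 4 groups of 2 arrays each were therefore siNTC with PBS, siNTC with Ang II, siGiver with PBS and siGiver with Ang II, and every group had been transfected. The labels do not give the rats' age, how many rats were used, or whether a group's arrays stem from different cultures. The p-values therefore describe array-to-array spread, and this can be technical. Giver itself was not analysed here, so the knockdown is known only from the labels, and 1 siRNA target stands for it.

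CCL2 and CCL7 act mainly on monocytes through CCR2, CCL20 acts on CCR6 of lymphocytes and dendritic cells, and CXCL1 and CXCL2 draw neutrophils through CXCR2. CX3CL1 is made as a membrane protein that can tether cells bearing CX3CR1 and can be shed. CXCL12 signals through CXCR4, whereas ACKR3 binds CXCL12, recruits arrestin and takes the ligand up without the usual G protein signal. In vascular smooth muscle, Ang II is known to raise inflammatory chemokines, many of which are targets of the transcription factor NF-kB.

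The promoter windows of Ccl20, Cxcl1 and Cxcl2 are shown because they share a letter pattern that was found in no other window of the 8 genes. These genes rose with Ang II in both arms, but so did Ccl2 and Ccl7. Between the siRNAs in PBS, Ccl20 was higher in siGiver cells, whereas Cxcl1 and Cxcl2 were lower. Each window runs from 250 bases before to 50 bases after the start in the RefSeq table (build GRCr8), 5′ to 3′ on the gene's strand, and capitals mark matches to an NF-kB type pattern on either strand, namely GGG and TTTCC with any 2 bases between them.
Ccl20, chr9:91836909-91837208, + strand: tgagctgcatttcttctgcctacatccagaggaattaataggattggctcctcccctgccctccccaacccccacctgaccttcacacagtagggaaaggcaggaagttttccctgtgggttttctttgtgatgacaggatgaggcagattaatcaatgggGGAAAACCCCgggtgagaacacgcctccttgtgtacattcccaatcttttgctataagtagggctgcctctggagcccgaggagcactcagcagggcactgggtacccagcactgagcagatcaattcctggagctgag
Cxcl1, chr14:17479272-17479571, - strand: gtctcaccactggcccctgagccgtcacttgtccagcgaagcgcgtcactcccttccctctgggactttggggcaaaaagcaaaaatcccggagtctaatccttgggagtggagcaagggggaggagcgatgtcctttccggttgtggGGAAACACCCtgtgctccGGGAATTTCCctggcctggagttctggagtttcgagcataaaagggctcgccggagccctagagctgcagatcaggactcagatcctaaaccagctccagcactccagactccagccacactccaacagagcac
Cxcl2, chr14:17467206-17467505, - strand: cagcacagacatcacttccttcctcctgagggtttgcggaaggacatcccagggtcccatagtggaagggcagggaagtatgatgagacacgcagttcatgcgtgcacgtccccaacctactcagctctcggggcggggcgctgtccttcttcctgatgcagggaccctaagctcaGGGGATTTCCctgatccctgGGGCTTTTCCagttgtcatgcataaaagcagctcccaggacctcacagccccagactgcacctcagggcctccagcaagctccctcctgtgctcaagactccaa
The table held a window for 7 of the 8 genes, all but Ccl2. The pattern was found in Ccl20 (1 match), Cxcl1 (2) and Cxcl2 (2), thus in 3 of 7 windows, against 1.53% of all 33469 windows of that length in the table. An AP-1 type pattern, TGANTCA, which reads alike on both strands, was found only in the Ccl7 window among the 7, against 7.33% of all windows, and no match of it overlapped an NF-kB type match. These are matches of letters and no measurement of binding. In the gene order of the same table, no gene starts between Ccl2 and Ccl7 on chromosome 10 or between Cxcl2 and Cxcl1 on chromosome 14, so those pairs are direct neighbours.

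The arrays of a group correlated at 0.998 over all probe sets. Defining smooth muscle markers were present, with 9 of 9 tested, while Ptprc, Itgam, Csf1r, Adgre1, Cd3e, Ms4a1, S100a8 and S100a9 of the 12 leukocyte markers on the array, and Pecam1, Tek, Kdr, Vwf, Tie1 and Emcn of 7 endothelial ones, lay below the filter (a mean of 4.81 on the log2 scale). The leukocyte markers above the filter were Cd14, with group means from 8.15 to 8.61, and Cd68, Lyz2 and Cd79b, with group means from 4.71 to 5.42. The endothelial marker above it was Esam, from 6.43 to 6.93. All 6 fibroblast markers were tested, with Col1a1 and Lum above 12 on the log2 scale, genes that cultured smooth muscle cells also express. Levels below are log2 values that are comparable between arrays for 1 gene, not between genes. A gene is called changed where limma's Benjamini-Hochberg adjusted p over all 11377 genes was under 0.05, and errors after ± are standard errors (SE) of that fit, from 2 arrays per group.

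**Figure D1:**
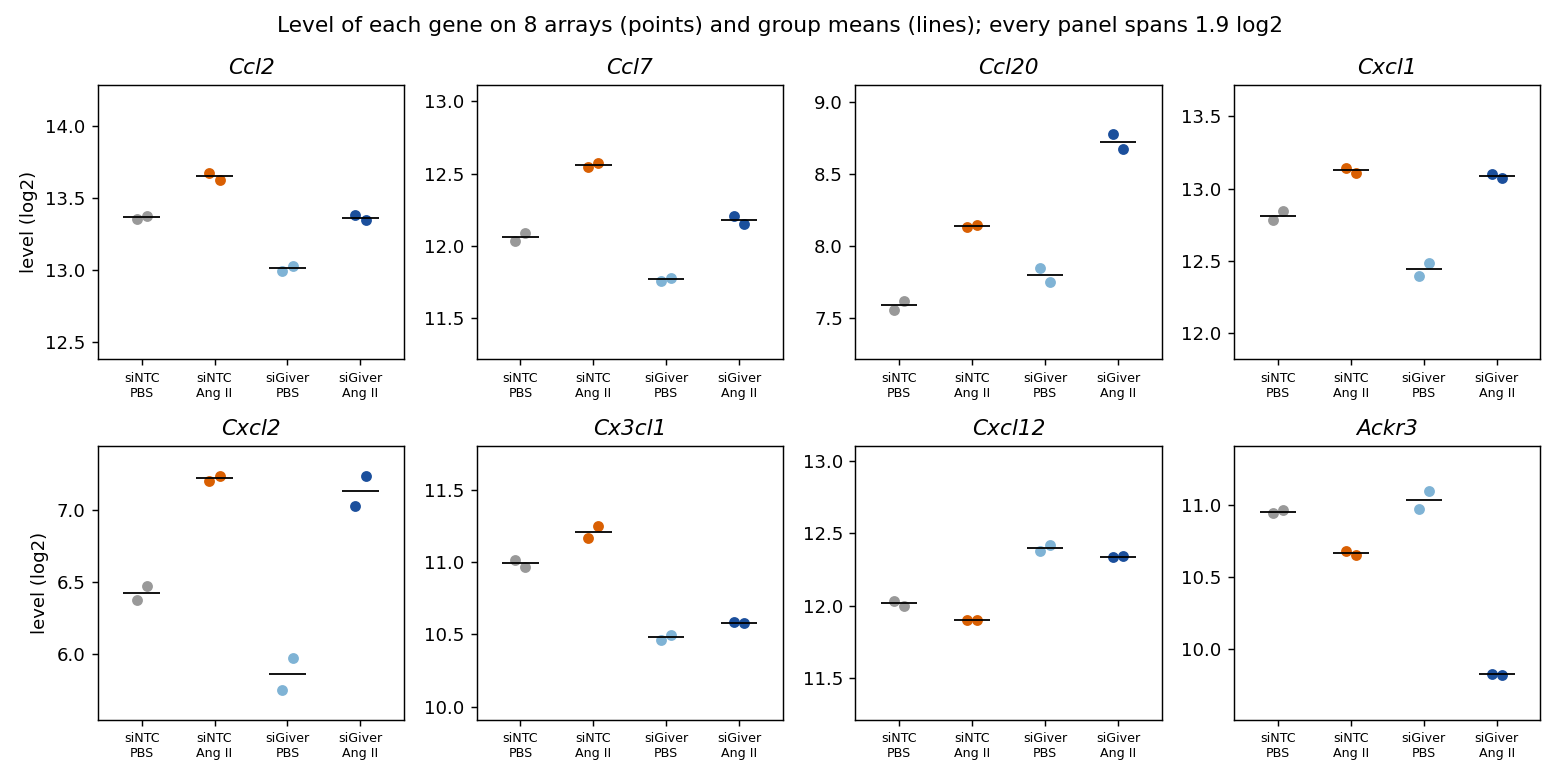
Log2 level of each of the 8 genes (vertical axis, each panel spanning 1.9 log2) on the 8 arrays, as points, by group, with group means as lines. Ackr3 was lowest with siGiver and Ang II, at 9.82 and 9.83, Ccl20 was highest there, and Cxcl12 stood higher in the siGiver than in the siNTC groups.

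Ccl2 and Ccl7, the monocyte chemokines, rose with Ang II by similar amounts whichever siRNA the cells had received, and both stood lower in siGiver cells with or without Ang II. Ccl2 read 13.36 and 13.38 in siNTC cells with PBS, 13.68 and 13.63 with Ang II, 12.99 and 13.03 in siGiver cells with PBS, and 13.38 and 13.35 with Ang II. The siNTC arrays with Ang II were highest and the siGiver arrays with PBS lowest, and the remaining pair of groups overlapped, 0.0036 apart in the mean. Thus siGiver cells with Ang II had the Ccl2 level of siNTC cells without it. The Ang II difference of Ccl2 was 0.28 ± 0.045 in siNTC cells (1.22-fold, adjusted p = 0.0124) and 0.35 ± 0.045 in siGiver cells (1.28-fold, adjusted p = 0.00211). In siGiver against siNTC cells it was lower by -0.36 ± 0.045 in PBS (adjusted p = 0.000843) and by -0.29 ± 0.045 with Ang II (adjusted p = 0.00162). The Ccl2 call in siNTC cells was lost when any 1 of the 4 siNTC arrays was left out, with adjusted p between 0.0517 and 0.0776. In these bulk samples, fewer cells that carry a transcript and less of it per cell cannot be told apart.

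Ccl7 read 12.03 and 12.09 in siNTC cells with PBS and 12.55 and 12.57 with Ang II. In siGiver cells it read 11.76 and 11.78 with PBS and 12.21 and 12.15 with Ang II, and no groups overlapped. Ang II raised it by 0.50 ± 0.046 in siNTC cells (1.41-fold, adjusted p = 0.0012) and by 0.41 ± 0.046 in siGiver cells (1.33-fold, adjusted p = 0.00113). It was lower in siGiver cells by -0.29 ± 0.046 in PBS and by -0.38 ± 0.046 with Ang II (adjusted p = 0.00228 and 0.000472). The order of its groups matched that of Ccl2 at the top and bottom, with siNTC and Ang II highest and siGiver and PBS lowest.

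Ccl20, the ligand of CCR6, was the only 1 of the 6 ligands that rose in either arm that stood higher in siGiver cells. It read 7.56 and 7.62 in siNTC cells with PBS, 8.13 and 8.15 with Ang II, 7.85 and 7.75 in siGiver cells with PBS, and 8.77 and 8.67 with Ang II. The 4 groups did not overlap, and siGiver cells with Ang II were highest. Ang II raised Ccl20 by 0.55 ± 0.057 in siNTC cells (1.46-fold, adjusted p = 0.00231) and by 0.93 ± 0.057 in siGiver cells (1.9-fold, adjusted p = 5.95e-05). Against siNTC cells it was higher by 0.58 ± 0.057 with Ang II (1.5-fold, adjusted p = 0.000178) and by 0.21 ± 0.057 in PBS (adjusted p = 0.0259). The difference in PBS lost its call without either siNTC PBS array (0.18 and 0.24, adjusted p = 0.117 and 0.0531) and without siGiver PBS replicate 1 (0.16, adjusted p = 0.143).

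Cxcl1 and Cxcl2, which encode neutrophil chemokines, were lower in siGiver cells with PBS. Cxcl6, among the further ligands given below, was higher there by 0.99 (adjusted p = 6.77e-05). With Ang II no difference between the siRNAs passed the test for Cxcl1 or Cxcl2. Cxcl1 read 12.78 and 12.84 in siNTC cells with PBS, 13.14 and 13.11 with Ang II, 12.4 and 12.49 in siGiver cells with PBS, and 13.08 and 13.1 with Ang II. The 2 groups given Ang II lay close together at the top, and siGiver with PBS was lowest. Ang II raised Cxcl1 by 0.31 ± 0.05 in siNTC cells (1.24-fold, adjusted p = 0.0125) and by 0.65 ± 0.05 in siGiver cells (1.57-fold, adjusted p = 0.000182). The siNTC call was lost without siNTC PBS replicate 1 (adjusted p = 0.0826) and without siNTC Ang II replicate 1 or 2 (adjusted p = 0.0755 and 0.066). In siGiver against siNTC cells Cxcl1 was lower by -0.37 ± 0.05 in PBS (adjusted p = 0.00111). With Ang II its difference was -0.036, with a 95% interval from -0.15 to 0.08 (adjusted p = 0.605).

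Cxcl2 had the largest rise of the 8 genes in both arms. It read 6.38 and 6.47 in siNTC cells with PBS and 7.2 and 7.24 with Ang II. In siGiver cells it read 5.75 and 5.98 with PBS and 7.03 and 7.24 with Ang II, and its siGiver arrays lay further apart than those of the other genes. The 2 groups given Ang II overlapped. Ang II raised Cxcl2 by 0.79 ± 0.091 in siNTC cells (1.73-fold, adjusted p = 0.00357) and by 1.27 ± 0.091 in siGiver cells (2.41-fold, adjusted p = 0.000122). It was lower in siGiver cells with PBS by -0.56 ± 0.091 (adjusted p = 0.00271). With Ang II the difference was -0.084, with a 95% interval from -0.30 to 0.13 (adjusted p = 0.499).

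Cx3cl1, the membrane-bound chemokine, differed more between the siRNAs than with Ang II. It read 11.01 and 10.97 in siNTC cells with PBS, 11.17 and 11.25 with Ang II, 10.46 and 10.5 in siGiver cells with PBS, and 10.58 and 10.58 with Ang II. Both siGiver groups lay below both siNTC groups. In siGiver cells Cx3cl1 was lower by -0.51 ± 0.048 in PBS (1.42-fold, adjusted p = 0.000234) and by -0.63 ± 0.048 with Ang II (1.55-fold, adjusted p = 5.94e-05). Ang II raised it by 0.22 ± 0.048 in siNTC cells (adjusted p = 0.0398). That call was lost when any 1 of the 8 arrays was left out, with adjusted p from 0.0648 to 0.203. In siGiver cells the Ang II difference was 0.099, with a 95% interval from -0.012 to 0.21 (adjusted p = 0.194). The sheddase gene Adam17 was lower in siGiver cells by -0.30 ± 0.047 in PBS and -0.33 ± 0.047 with Ang II (adjusted p = 0.00248 and 0.00107). Of 11 tested proteases and carriers that act on chemokines, 4 were lower and 2 higher in each comparison. Over all genes, 19.1% were lower in PBS and 24.8% with Ang II. Adam10 of that list had means of 7.41 and 7.63 in siNTC cells, and 7.25 and 7.45 in siGiver cells, with PBS and Ang II. The part of these genes was not tested.

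**Figure D2:**
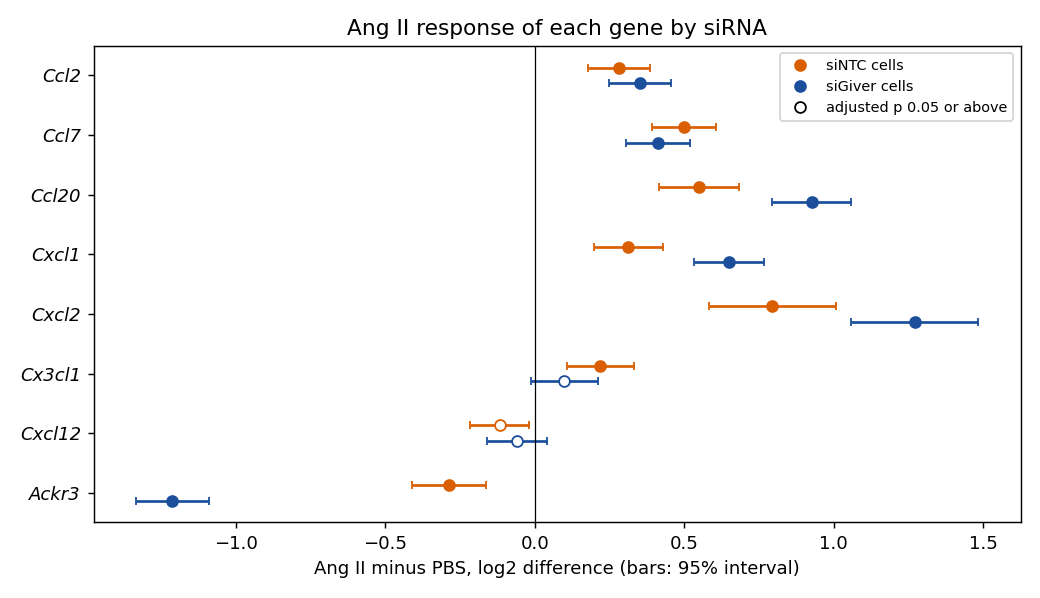
Ang II minus PBS log2 difference (horizontal axis, with 95% intervals) of each gene in siNTC and siGiver cells, open points having an adjusted p of 0.05 or above. Cxcl2 lies furthest right in both arms (0.79 and 1.27) and Ackr3 furthest left (-0.29 and -1.21).

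Cxcl12 was higher in siGiver cells on all 3 of its probe sets. On the brightest it read 12.03 and 12 in siNTC cells with PBS, 11.9 and 11.9 with Ang II, 12.38 and 12.42 in siGiver cells with PBS, and 12.34 and 12.34 with Ang II. All siGiver arrays lay above all siNTC arrays. The siGiver minus siNTC difference was 0.38 ± 0.043 in PBS (1.3-fold, adjusted p = 0.000482) and 0.44 ± 0.043 with Ang II (1.36-fold, adjusted p = 0.000173). With every probe set tested on its own, the middle one gave 0.31 and 0.24 and the dimmest 0.59 and 0.58, with adjusted p from 0.000398 to 0.00699 for these 4 differences. Ang II differences of Cxcl12 did not pass in either arm, at -0.12 with a 95% interval from -0.22 to -0.018 in siNTC cells (adjusted p = 0.16) and -0.059 with an interval from -0.16 to 0.04 in siGiver cells (adjusted p = 0.374). With trended, robust moderation the siNTC difference passed (adjusted p = 0.00874). The Ang II differences of the other probe sets were -0.098 and 0.0001 in siNTC cells, for the middle and the dimmest. In siGiver cells the middle one gave -0.17, with a 95% interval from -0.28 to -0.058 and arrays that did not overlap (adjusted p = 0.0578), and the dimmest -0.00825, so the probe sets disagreed in size.

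**Figure D3:**
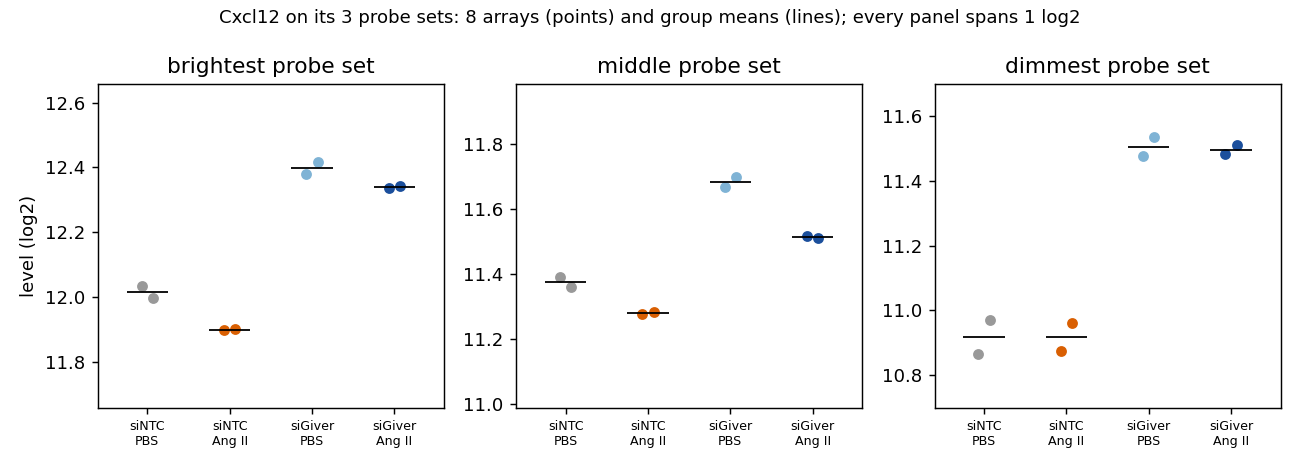
Log2 level of the 3 Cxcl12 probe sets (vertical axis, each panel spanning 1 log2) on the 8 arrays, as points, with group means as lines. On each probe set all 4 siGiver arrays lie above all 4 siNTC arrays, and the gap in PBS ranges from 0.31 on the middle to 0.59 on the dimmest one.

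Ackr3, the scavenging receptor of CXCL12, fell with Ang II in both arms, and the fall in siGiver cells was the lowest of all 11377 differences in that comparison. It read 10.94 and 10.96 in siNTC cells with PBS and 10.68 and 10.65 with Ang II. In siGiver cells it read 10.97 and 11.1 with PBS, and 9.83 and 9.82 with Ang II. The siGiver arrays with Ang II lay far below the other 6. Ackr3 fell by -0.29 ± 0.053 in siNTC cells (to 0.82 of the PBS level, adjusted p = 0.0221) and by -1.21 ± 0.053 in siGiver cells (to 0.432 of it, adjusted p = 9.81e-06). Between the siRNAs the PBS difference was 0.083, with a 95% interval from -0.04 to 0.21 (adjusted p = 0.266). With Ang II, siGiver cells were lower by -0.84 ± 0.053 (1.79-fold, adjusted p = 2.91e-05). The siNTC fall lost its call when any 1 siNTC array was left out, with adjusted p from 0.0839 to 0.126. Ligand and receptor thus moved in opposite directions between the siRNAs under Ang II, with Cxcl12 0.44 higher and Ackr3 -0.84 lower in siGiver cells.

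Counted together, 7 of the 8 genes changed with Ang II in siNTC cells, against 6.14% of all genes. Of these, 6 rose and 1 fell, against 3.96% of all genes called higher and 2.17% called lower. In siGiver cells 6 changed, against 16.3%, of which 5 rose and 1 fell, against 9.11% and 7.17%. The Ang II and PBS arrays did not overlap for any of the 8 genes in either arm, which held for 52.7% of all genes in siNTC and 62.3% in siGiver cells. The median Ang II difference of the 8 genes was 0.30 in siNTC and 0.38 in siGiver cells, against 0.0058 and -0.028 over all genes. Without any 1 siNTC array, 3 or 4 of the 8 were called in siNTC cells, while 6 were called in siGiver cells whichever array was left out. Fibroblast markers moved with Ang II as well, with 4 of 6 lower in siNTC and 1 in siGiver cells. Of 9 smooth muscle markers 3 were lower in siNTC cells, whereas in siGiver cells 2 were higher (Smtn and Cnn1) and 1 lower (Synpo2). The part of these markers was not tested.

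Between siRNAs, 7 of the 8 genes differed in PBS, against 35.0% of all genes. Of these, 5 were lower and 2 higher in siGiver cells, against 19.1% and 16.0%. With Ang II 6 differed, against 44.3%, of which 4 were lower and 2 higher, against 24.8% and 19.5%. The arrays of the siRNAs did not overlap for 8 of the 8 genes in PBS and 7 with Ang II, against 67.1% and 72.4% of all genes. The median difference of the 8 genes was -0.32 in PBS and -0.19 with Ang II, against -0.0047 and -0.026 over all genes. Ccl2, Ccl7 and Cx3cl1 were lower and Ccl20 and Cxcl12 higher in both comparisons. The comparisons use different arrays, but they share the siRNAs and the spread estimated in 1 fit, so they are not independent. Cxcl1 and Cxcl2 were called in PBS and Ackr3 with Ang II, and whether these siRNA differences depend on Ang II is the interaction tested below. Smooth muscle markers moved with the siRNA as well, with 6 of 9 higher and 1 lower in PBS, and 7 higher and 1 lower with Ang II. Their summed linear signal was 36820 to 36900 in siNTC and 38444 to 39145 in siGiver cells with PBS, and 34181 to 34344 against 39043 to 39421 with Ang II. Of 4 leukocyte markers tested, Cd14 and Cd68 were lower in siGiver cells with Ang II, by -0.45 and -0.60. The summed linear signal of the 12 on the array was 596 to 610 in siNTC and 480 to 494 in siGiver cells with Ang II, and 535 to 557 against 540 to 552 with PBS. Of 6 fibroblast markers 1 was higher in siGiver cells with PBS and 4 with Ang II, with sums of 10524 to 10683 in siNTC and 12448 to 12868 in siGiver cells with Ang II. Esam, the 1 of 7 endothelial markers that was tested, was higher in siGiver cells by 0.49 in PBS and 0.50 with Ang II (adjusted p = 0.0017 and 0.00113). The summed linear signal of the 7 was 171 to 176 in siNTC and 206 to 213 in siGiver cells with PBS, and 172 to 173 against 205 to 209 with Ang II. The part of these markers in the chemokine differences was not tested.

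**Figure D4:**
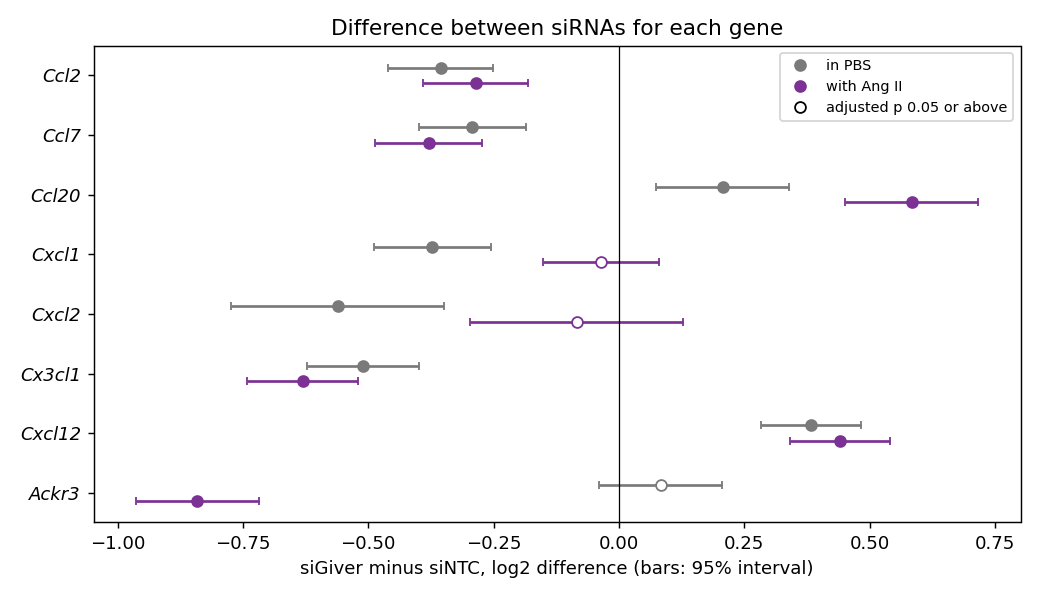
siGiver minus siNTC log2 difference (horizontal axis, with 95% intervals) of each gene in PBS and with Ang II, open points having an adjusted p of 0.05 or above. Ccl20 and Cxcl12 lie right of 0 in both conditions, Ccl2, Ccl7 and Cx3cl1 left of it, and Ackr3 moves from 0.083 in PBS to -0.84 with Ang II.

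Whether the Ang II response itself differed between the siRNA arms was tested as an interaction, the siGiver response less the siNTC response. It passed for 3 of the 8 genes, against 6.21% of all genes. Of these, 2 were higher and 1 lower, against 3.35% and 2.87%. Ackr3 fell further in siGiver cells, with a difference of responses of -0.92 ± 0.075 (adjusted p = 0.000827), and this call was kept without any 1 array, from -0.99 to -0.86. Ccl20 and Cxcl1 rose further, by 0.38 ± 0.081 and 0.34 ± 0.071 (adjusted p = 0.0369 and 0.0347). The Ccl20 call was lost without any 1 array, with adjusted p from 0.0537 to 0.11, and that of Cxcl1 without any 1 array except siGiver PBS replicate 2. For Cxcl2 the difference of responses was 0.48, with a 95% interval from 0.18 to 0.78 (adjusted p = 0.0749), and it passed with the filter at the 50th percentile and with trended, robust moderation (adjusted p = 0.037 and 0.0201). For Ccl2, Ccl7, Cx3cl1 and Cxcl12 the values were 0.07, -0.087, -0.12 and 0.058. Their 95% intervals ran from -0.078 to 0.22, from -0.24 to 0.063, from -0.28 to 0.037 and from -0.083 to 0.20, and none passed (adjusted p from 0.342 to 0.62). Ccl20, Cxcl1 and Cxcl2, with the 3 highest interaction values, are also the 3 genes whose promoter windows above hold the NF-kB type letters. Ccl2, at 0.07, had no window to search. This is a description, and whether the letters bear on the responses was not tested.

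**Figure D5:**
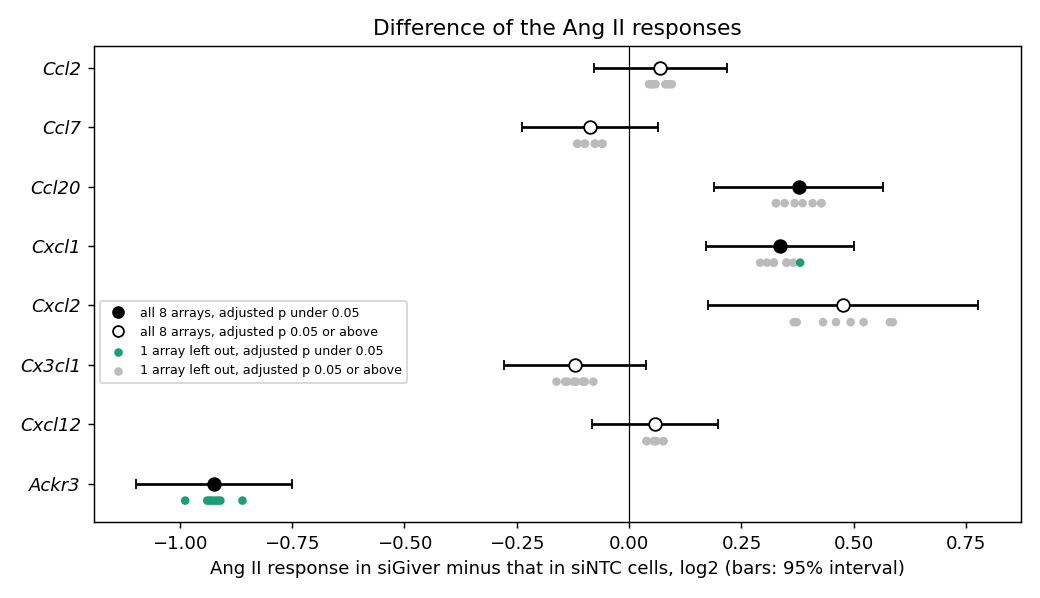
Ang II response with siGiver less that with siNTC (horizontal axis, log2, with 95% intervals) for each gene on all 8 arrays, and in small points with 1 array left out. Ackr3 lies at -0.92 and stays below -0.86 without any 1 array, while Ccl20, Cxcl1 and Cxcl2 lie between 0.34 and 0.48.

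Other genes of the chemokine system are given from lists chosen by function. Of 28 further ligand genes, 24 are on the array and 17 were tested. With Ang II 8 of the 17 rose in siNTC cells, and in siGiver cells 4 rose and 2 fell (medians 0.36 and 0.014). Over all genes, 3.96% rose in siNTC cells, and 9.11% rose and 7.17% fell in siGiver cells. Cxcl11, Cxcl9 and Ccl5, ligands that interferon induces, rose in siNTC cells by 1.62, 1.31 and 1.19, whereas in siGiver cells Cxcl9 fell by -0.30 to a level below the filter and Cxcl11 and Ccl5 did not pass, at -0.096 and -0.11. Their interaction values were -1.72, -1.61 and -1.31 (adjusted p from 0.000349 to 0.000366), the opposite sign to those of Ccl20 and Cxcl1. All 5 of the 17 ligands that passed the interaction were lower, among them Cxcl10 at -0.63. Over all genes, 2.87% passed the interaction as lower and 3.35% as higher. Between siRNAs in PBS, 3 of the 17 were higher and 5 lower in siGiver cells, against 16.0% and 19.1% of all genes. With Ang II 1 was higher and 8 lower, against 19.5% and 24.8%. Cxcl6 and Cxcl10 were higher in PBS by 0.99 and 0.55 (adjusted p = 6.77e-05 and 0.000126), Cxcl6 with means of 4.9 and 5.89, near the filter. Cxcl16, which is membrane-bound like Cx3cl1, was lower in siGiver cells by -0.83 ± 0.058 in PBS and -0.85 ± 0.058 with Ang II (adjusted p = 7.65e-05 and 4.02e-05).

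Of 22 further receptor genes, 16 are on the array and 11 of these lay below the filter, including Ccr2, Ccr6, Cxcr2 and Cxcr4. Cx3cr1, the receptor gene for Cx3cl1, was among the 5 tested, with group means from 5.19 to 5.28, and it passed in none of the 5 comparisons (adjusted p from 0.625 to 0.928). Ccrl2, an atypical receptor that binds chemerin, rose with Ang II by 0.86 ± 0.093 in siNTC cells (adjusted p = 0.00268) and stood at -0.079 in siGiver cells, with an interaction of -0.93 ± 0.13 (adjusted p = 0.00755). It was the only 1 of 5 tested receptors to pass with Ang II in siNTC cells, and none passed in siGiver cells (lowest adjusted p 0.191, Ackr2). Over all genes, 6.14% passed in siNTC and 16.3% in siGiver cells, so counts among 5 genes do not set the receptors apart. Among 11 tested arrestin, receptor kinase, Gi and adrenomedullin genes that act next to ACKR3, 2 were higher and 3 lower in siGiver cells with PBS, and 3 higher and 5 lower with Ang II, against 16.0% and 19.1% and then 19.5% and 24.8% of all genes. Ramp2, which encodes a partner of the adrenomedullin receptor, was higher by 0.39 and 0.46 (adjusted p = 0.00904 and 0.00312). Grk5 was lower in siGiver cells by -0.57 in PBS and -0.67 with Ang II, and Gnai2 by -0.38 and -0.48. Adm, whose peptide ACKR3 also binds, rose with Ang II by 0.30 in siNTC cells and fell by -0.25 in siGiver cells (interaction -0.56 ± 0.094, adjusted p = 0.0156).

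Of 11 NF-kB genes, 7 rose with Ang II in siGiver cells and 1 in siNTC cells (medians 0.30 and 0.18), against 9.11% and 3.96% of all genes. The interaction passed for 3, all higher, against 3.35%. Tnfaip3, which encodes an inhibitor of NF-kB signalling, rose by 0.74 in siGiver cells and stood at 0.12 in siNTC cells, an interaction of 0.63 ± 0.062 (adjusted p = 0.00188). Nfkbiz, a nuclear cofactor of NF-kB, and the subunit gene Nfkb1 also passed the interaction, at 0.46 and 0.30 (adjusted p = 0.0116 and 0.0395). Nfkbia, the gene of the inhibitor IkB-alpha, was the 1 that rose in siNTC cells, by 0.23, and stood at 0.013 in siGiver cells, and its interaction of -0.22 did not pass (adjusted p = 0.0755). Between siRNAs in PBS, Nfkbiz, Nfkb1 and Tnfaip3 were lower in siGiver cells by -0.47, -0.30 and -0.23, and Bcl3 was higher by 0.31 (adjusted p = 0.042), so that 3 of 11 were lower and 1 higher, against 19.1% and 16.0% of all genes. With Ang II, Tnfaip3, Ikbkb and Nfkb2 were higher by 0.39, 0.35 and 0.31 and Nfkbia was lower by -0.24, so that 3 were higher and 1 lower, against 19.5% and 24.8%.

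Of 9 genes for proteins that control the decay of chemokine transcripts, 2 rose with Ang II in siNTC and 4 in siGiver cells (medians 0.012 and 0.20), against 3.96% and 9.11% of all genes. Zfp36, which encodes a protein that speeds the decay of such transcripts, rose by 0.67 and 1.16, and Zfp36l2 of the same family by 0.25 and 1.02. Both passed the interaction, at 0.49 and 0.77 (adjusted p = 0.0091 and 0.000847). Of 11 tested proteases and carriers that act on chemokines, 2 rose and 1 fell with Ang II in siNTC cells and 2 rose in siGiver cells (medians 0.065 and 0.028), against 3.96% and 2.17%, and 9.11%, of all genes. Tnfaip6, whose secreted product binds several chemokines, rose by 0.52 and 1.30, and Sdc4, a heparan sulfate proteoglycan of the cell surface, by 0.28 and 0.72, with interactions of 0.78 and 0.44 (adjusted p = 0.00292 and 0.0172). Tnfaip6 was lower in siGiver cells, by -1.39 in PBS and -0.61 with Ang II (adjusted p = 1.86e-05 and 0.000184), with means of 11.29 and 11.81 in siNTC cells and 9.9 and 11.2 in siGiver cells with PBS and Ang II.

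The genes most like each of the 8 over the arrays were taken by Pearson correlation over 8 arrays among 1857 or 1858 genes whose group means span at least 0.5 log2. The arrays of a group share their treatment, so these are descriptions. Il6, an inflammatory cytokine, was most like Ccl7 (0.99), and Mef2c (0.989), Fam131a (0.987) and Il6 (0.987) were most like Ccl2. Ehd4, Dot1l and Rgs2 followed Ccl20 most closely (0.991, 0.989 and 0.985). Cxcl1 was matched by Ier3 (0.997) and Coq10b (0.996), and Cxcl2 by Mgat1 (0.984), Coq10b (0.983) and its neighbour Cxcl1 (0.983). Tmem87a, Fxyd5 and the cell cycle inhibitor Cdkn2b were closest to Cx3cl1 (0.996, 0.995 and 0.993). Plod2, a collagen-modifying enzyme, was closest to Cxcl12 (0.997), and Cc2d2a, Sash1 and Gdf6 to Ackr3 (0.976, 0.968 and 0.966).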

How the data were processed

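RNA was measured on 8 Affymetrix arrays, 2 in each of 4 groups taken from the labels. Values were deposited as log2 signals that ranged between 2.06 and 14.6. RMA and Partek are the tools listed in the submitters' processing notes, with settings and versions not given in the sources used here. As a method, RMA corrects background, normalizes between arrays and gives 1 value per probe set. Array medians lay between 6.15 and 6.19, and precision is limited by how few arrays there are.

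Gene symbols came from the platform annotation in GEO and were updated by gene identifier, which matched 20764 of the 20832 probe sets with 1 symbol. Probe sets with a mean under the 30th percentile (4.81 log2) were left out, and each symbol was represented by its brightest probe set, giving 11377 genes. limma 3.58.1 in R 4.3.3 fitted 1 mean per group to all 8 arrays (4 residual and 3.53 prior degrees of freedom), with 5 contrasts, Benjamini-Hochberg adjustment over all genes and a threshold of 0.05. The procedure was first tested on simulated data, with 50 genes changed at each fold. It recovered 12% of 1.25-fold, 64% of 1.5-fold and 96% of 2-fold interactions, so small interactions were often missed in the simulation. For Ang II in siNTC cells it recovered 56%, 86% and 100% at these folds. The simulation gave 144 and 180 calls in these 2 comparisons, against 707 and 698 in the data. It also drew each gene's spread without regard to its level, so the rates need not hold for the 8 genes. Promoter windows came from RefSeq (GRCr8).

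The 8 genes, the lists and the tests were chosen with earlier results of these data known. Beside the 8 genes, the rule allowed naming up to 4 genes of a list per contrast by smallest p, and the 3 genes most alike in pattern, skipping clone and locus names. The alternatives changed the filter (none, or the 50th percentile), the handling of several probe sets (their mean, or each tested alone), the scaling (cyclic loess, or subtracted array medians), the moderation (trended and robust), and the arrays fitted (only the groups compared, or 1 array left out). A further alternative had the replicate number as a block. Scan dates and slides were not used here, so batches were not tested.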

Additional observations from a re-analysis of the deposited data

Results flagged for a closer look

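For 3 of the 8 genes the Ang II response differed between siGiver and siNTC cells by limma's interaction test. The response of Ackr3 was lower in siGiver cells by -0.92 ± 0.075 log2 (adjusted p = 0.000827). In each arm both Ang II arrays read lower than both PBS arrays. The responses of Ccl20 and Cxcl1 were higher by 0.38 ± 0.081 and 0.34 ± 0.071 (adjusted p = 0.0369 and 0.0347). Both genes had higher levels on both Ang II arrays of each arm than on its PBS arrays. Ang II and PBS arrays did not overlap for 52.7% of all genes in siNTC and 62.3% in siGiver cells. The Ccl20 and Cxcl1 interaction calls were lost without a filter, with every probe set on its own and with the replicate block, whereas that of Ackr3 was kept.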

How the results depend on the processing

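Of 672 recomputed values of the 8 genes over 5 comparisons, 621 kept their side of the threshold. Another 47 kept the direction and lost the call, 4 gained a call and 0 turned a called direction. Values called in neither setting count among the 621 even where their sign changed. For example, the siGiver difference of Cxcl2 with Ang II was -0.084 and reached 0.019 with 1 array left out. The calls that were lost under a setting other than leaving out an array were the Cx3cl1 rise in siNTC cells (no filter, every probe set on its own, only the 2 groups compared, replicate block) and the Ccl20 and Cxcl1 interactions, whose adjusted p was 0.0693 and 0.0665 without a filter, 0.0651 and 0.0649 with every probe set on its own, and 0.0585 and 0.0568 with the replicate block. The cause of these losses was not tested. The number of the 8 genes called by the interaction was then 1 without a filter and 1 with every probe set on its own. With the replicate block the Cxcl2 interaction passed (adjusted p = 0.0345). Same-numbered arrays deviated together at correlations from -0.17 to 0.096, so the numbers were not taken to pair the arrays.

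Leaving out 1 array gave 3 to 6 of the 8 genes for Ang II in siNTC cells (7 with all arrays), 1 to 2 for the interaction (3), 6 to 7 for siGiver in PBS (7), and 6 in the other comparisons. Over all genes the counts ranged from 226 to 528 for Ang II in siNTC cells (698 with all arrays), from 870 to 1731 in siGiver cells (1852), from 356 to 435 for the interaction (707), from 2770 to 3785 for siGiver in PBS (3986) and from 3953 to 5031 with Ang II (5037). Genes called for Ang II in siNTC cells numbered 420 without a filter, 1066 with the filter at the 50th percentile, 1496 with trended, robust moderation and 422 from only the 2 groups compared. In siGiver cells they numbered 2802 with that moderation and 1211 from only the 2 groups. The interaction gave 467 without a filter and 1490 with that moderation. With every probe set on its own, siGiver in PBS gave 6042 and with Ang II 7751. With the replicate block the Ang II count in siNTC cells was 548. With array medians subtracted, the siGiver Ang II calls were 1164 higher and 561 lower, against 1036 and 816. The fit to only the 2 groups has no interaction, so that value was not run.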
